A study of Homo sapiens with 4 samples.

Results

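The thrombospondin family, THBS1, THBS2, THBS3, THBS4 and COMP, was examined together with the thrombospondin receptors CD36 and CD47, which makes 7 of the 18417 genes with a named transcript cluster. The genes were picked by name with the lower THBS1 signal on these arrays already known. The signals of all 7 in the contrast of p53si-1 with NS are therefore given as a description, with standard errors and intervals and without a test. The cells were MDA-MB-468, an established breast cancer line, and their own p53 is the R273H mutant. Cells on 2 arrays had been transduced with a non-targeting lentiviral shRNA (NS), and cells on the other 2 arrays with p53si-1, a lentiviral shRNA directed at the endogenous mutant p53. Each was hybridized to an Affymetrix Human Gene 1.0 ST array, and the authors' RMA signal, on a log2 scale, was used as deposited. The methods and the results of the study give different times between transduction and RNA collection, so the time is in doubt and none is given here. The arrays hold 1 line and 1 p53 shRNA sequence, so an effect of that sequence on other transcripts and the loss of p53-R273H cannot be told apart. The transcript targeted by the shRNA was not analysed here.

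Thrombospondins are large secreted glycoproteins of the extracellular matrix that bind calcium and act on cells through several receptors at once. THBS1 and THBS2 form trimers and carry the type 1 repeats through which they bind CD36 and restrain the growth of blood vessels. THBS3, THBS4 and COMP form pentamers and lack these repeats. CD36 is a scavenger receptor that also takes up fatty acids, and CD47 is a membrane protein that binds the C-terminal part of THBS1 and signals to phagocytes through SIRPA. In breast tissue THBS1 is made by stroma and vessels as well as by epithelium, and it can release TGF-beta from its latent complex.

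The start-site regions are given first because THBS1, CCN1 and CCN2 are known targets of the YAP and TAZ coactivators, which reach DNA through TEAD proteins. RefSeq windows of 300 bases (GRCh38.p14, 250 bases before to 50 after a start site) were on hand for all 7 genes, 14 windows in all. The letters GGAATG, the core that TEAD proteins bind, were searched on both strands. They occurred for THBS1, THBS2, COMP and CD36 and not in the windows of THBS3, THBS4 and CD47. Of all 35116 windows 14% held these letters, and of 14239 array genes with a window 15.5% did. The stretches of 30 bases around each match are shown, on the strand of the gene, to place the match against the start site, and capitals mark GGAATG or its reverse complement CATTCC.
THBS1, chr15:39581021-39581050, plus strand: gaggaatccccaGGAATGcgagcgcccctt
THBS2, chr6:169253932-169253961, minus strand: gggggatgatgtCATTCCttcgaaGGAATG
COMP, chr19:18791429-18791458, minus strand: gacttcgcggggCATTCCgggcggggactt
CD36, chr7:80602102-80602131, plus strand: caagttaactttCATTCCatttggctcagg
The THBS1 match began 46 bases before the start site. The THBS2 window held 2 matches in opposite orientation, which began 103 and 91 bases before the start site. The COMP match began 141 bases before it and touched, without overlap, a GC box. The CD36 match lay in 1 of its 6 windows, 93 bases before that start. The letters TATAAA were found for THBS2 and CD36, against 11.9% of array genes. For THBS2 they began 29 bases before the start site, on the strand of the gene. For CD36 they lay further off, 211 bases before 1 start as the reverse complement and 216 bases before another. The GC box GGGCGG was found for THBS1, THBS3, THBS4, COMP and CD47, against 65.9% of array genes. No member window held a CArG box, the site of SRF, against 1.7% of array genes, and the AP-1 site TGANTCA was found for CD36 (8% of array genes). These matches describe letters in the windows and are not measured binding sites. The windows of CCN1 and CCN2 are not reported here. Of the genes with GGAATG, the log2 differences, p53si-1 minus NS, were -1.06 (THBS1), -0.0048 (THBS2), -0.0064 (COMP) and -0.11 (CD36). Of those without it, they were -0.32 (THBS3), 0.12 (THBS4) and -0.09 (CD47). A part of YAP, TAZ or TEAD proteins in these differences was not tested.

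THBS1 was the member that differed most, and it was lower after p53si-1. With NS the log2 signals of THBS1 were 8.62 and 8.77, and with p53si-1 they were 7.55 and 7.73. Both p53si-1 arrays lay below both NS arrays, and the gap between the groups was wider than the gap between the arrays of either group. The group means were 8.69 ± 0.10 and 7.64 ± 0.13 (SD, n = 2 arrays each), a difference of -1.06 on the log2 scale with a standard error of 0.10 and a 95% interval of -1.31 to -0.81. This is 2.08-fold lower. The difference was -1.07 between the replicate 1 arrays and -1.04 between the replicate 2 arrays. Without any 1 array it lay between -1.15 and -0.97. By size it stood 13th among all genes in either direction. In a culture of 1 line, fewer cells that make THBS1 and less THBS1 RNA per cell cannot be told apart.

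**Figure D1:**
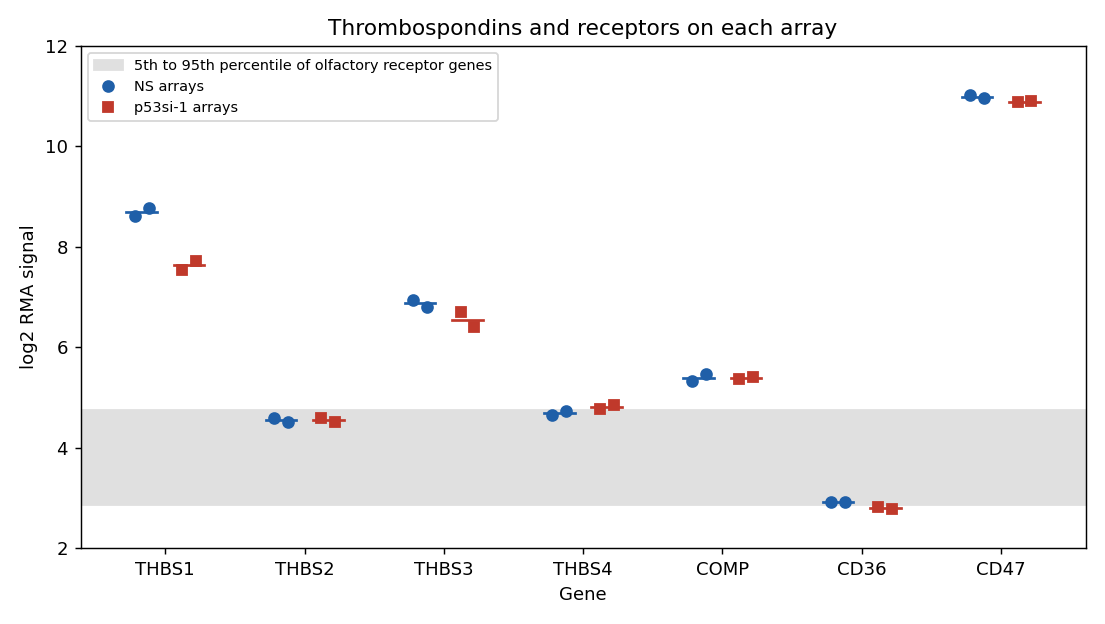
Log2 RMA signal of each member on each array, with circles for the NS arrays, squares for the p53si-1 arrays and bars for the group means. The grey band runs from 2.86 to 4.75, the 5th to 95th percentile of mean signals of 361 olfactory receptor genes. Signals of different genes come from different probes and are not compared as levels. The THBS1 squares lie at 7.55 and 7.73, below the circles at 8.62 and 8.77.

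THBS2, the other trimeric member and the closest relative of THBS1, gave overlapping groups. Its log2 signals were 4.60 and 4.52 with NS and 4.60 and 4.50 with p53si-1. The difference was -0.0048 with a 95% interval of -0.21 to 0.21. These signals were dim. Olfactory receptor genes, which a breast line should not express, had a median log2 signal of 3.57 over 361 genes and a 95th percentile of 4.75, and 90.6% of them lay below THBS2. A signal in this range does not show whether THBS2 was expressed, and the interval holds for the signal of its probes.

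THBS3 was the pentameric member with the clearest lower mean. Its log2 signals were 6.95 and 6.79 with NS and 6.70 and 6.40 with p53si-1. The groups did not overlap, but the lower NS array and the higher p53si-1 array were close. The difference was -0.32 with a standard error of 0.12 and a 95% interval of -0.62 to -0.03, which is 1.25-fold lower. The p53si-1 arrays themselves differed by 0.29. Without p53si-1 replicate 2 the difference was -0.18, and without p53si-1 replicate 1 it was -0.47, so its size rests on which of these arrays is used.

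THBS4 was the 1 member with a higher mean. It had log2 signals of 4.66 and 4.73 with NS and 4.77 and 4.86 with p53si-1. The groups did not overlap, and the difference was 0.12 with a 95% interval of -0.09 to 0.32. Its mean of 4.75 lay above 94.7% of the olfactory receptor genes, close to their 95th percentile. COMP, a matrix protein of cartilage and tendon, had log2 signals of 5.34 and 5.46 with NS and 5.37 and 5.41 with p53si-1. Both p53si-1 arrays lay between the NS arrays, and the difference was -0.0064 (95% interval -0.22 to 0.21). COMP lay above 98.9% of the olfactory receptor genes.

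The receptor genes differed less than THBS3. CD47 was bright, with log2 signals of 11.02 and 10.96 with NS and 10.88 and 10.91 with p53si-1. Both p53si-1 arrays lay below the NS arrays, by a mean difference of -0.09 with a 95% interval of -0.29 to 0.10. CD36 had log2 signals of 2.91 and 2.93 with NS and 2.83 and 2.78 with p53si-1. Its mean exceeded 4.99% of the olfactory receptor genes, which puts CD36 in the range of genes that a breast line should not express. The difference was -0.11 (95% interval -0.31 to 0.08), and the groups did not overlap.

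**Figure D2:**
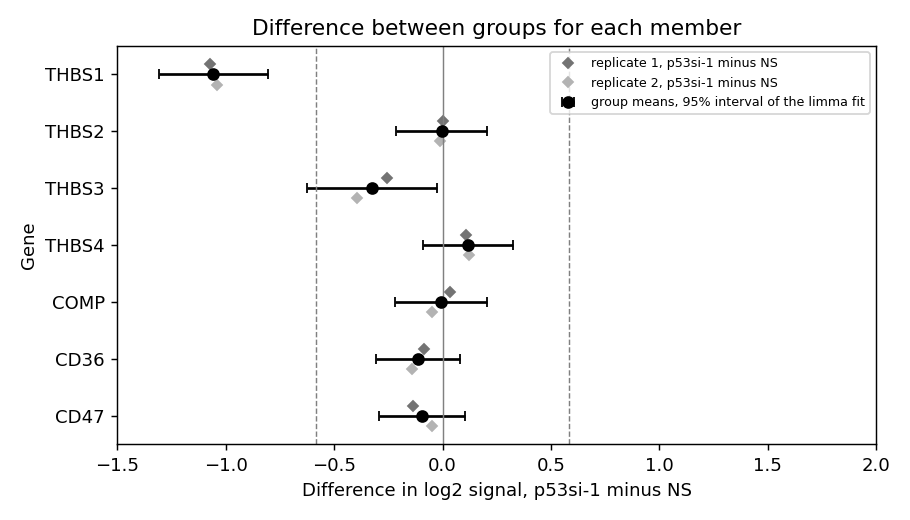
Difference in log2 signal, p53si-1 minus NS, for the 7 members. Black circles are differences of group means with the 95% interval of the limma fit, diamonds are differences between same-numbered arrays, and dashed lines mark 1.5-fold. THBS1 lies at -1.06 beyond the dashed line, and the other means lie between -0.32 and 0.12.

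Of the 7 members, 6 had a lower mean with p53si-1, as did 52.6% of all genes. By over 1.5-fold, the threshold the study used for the arrays, 1 was lower and 0 were higher. Over all genes 0.652% were lower and 0.271% higher by this measure, 0.923% in all. Both p53si-1 arrays lay below both NS arrays in 4 members (22.6% of all genes) and above them in 1 member (19.9% of all genes), so that 5 members had groups that did not overlap (42.5% of all genes). The 2 members that overlapped were THBS2 and COMP. The median difference of the 7 members was -0.09, and without THBS1 it was -0.05, against -0.0089 over all genes. The THBS1 difference exceeded that of THBS3 by -0.73, that of THBS2 by -1.05 and that of THBS4 by -1.17. The 95% interval of THBS1 overlapped none of the intervals of the other 6 members. The members were chosen on this contrast, so these counts and gaps describe the members and test nothing.

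The 5 genes with signals most like THBS1 were outside the family, as nearly all genes compared are. Likeness was the Euclidean distance over the 4 arrays after each gene was centred on its own mean, so a small distance means a like size as well as a like direction. The nearest genes were ECHDC1, an enzyme that removes side products of fatty acid synthesis (distance 0.13), LRP12, a receptor of the LDL receptor family (0.14), SCML1, a relative of Polycomb proteins (0.15), the choline transporter SLC44A1 (0.16) and FERMT2, a kindlin that activates integrins (0.17). FERMT2, for example, had log2 signals of 8.20 and 8.34 with NS and 7.33 and 7.42 with p53si-1. The other thrombospondins and the receptors stood at distances of 0.83 for THBS3 to 1.18 for THBS4. Ranked by distance to THBS1 among all genes, THBS3 was 1071st, CD36 3500th and CD47 4272nd. COMP was 8052nd, THBS2 9578th and THBS4 14240th. Over 4 arrays in 2 groups such a ranking mostly orders genes by their difference between the groups. Of the 4 nearest genes with a start-site window, ECHDC1 held the GGAATG letters. The differences of all 5 nearest genes ran from -1.07 for LRP12 to -0.90 for FERMT2, a range that the choice of genes like THBS1 fixes.

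**Figure D3:**
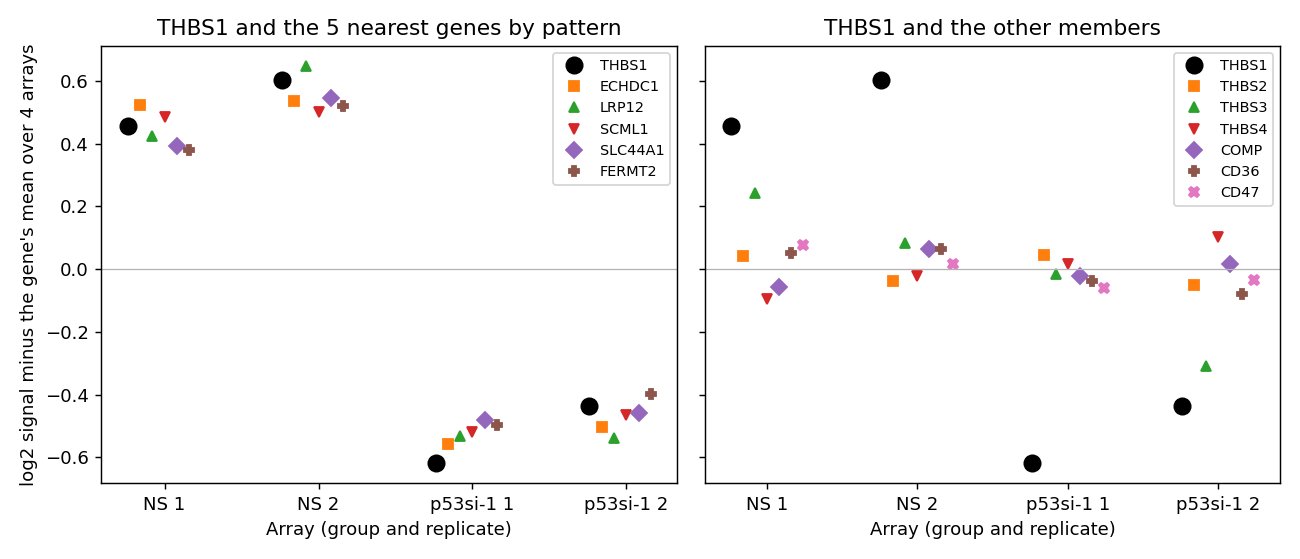
Array signals on the log2 scale after centring each gene on its own 4-array mean, for THBS1 with the 5 nearest genes (left) and with the other members (right). Large black circles are THBS1. The nearest genes lie on the same side of 0 as THBS1 on all 4 arrays, while THBS3 lies between THBS1 and the remaining members on 3 arrays and among those members on p53si-1 replicate 1.

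Genes known to work with thrombospondins were taken from 7 lists that name 127 measured genes besides the members. None passed an adjusted p of 0.05 by limma over all 18417 genes, where 0.109% of genes passed, 0.076% lower and 0.0326% higher. At an unadjusted p under 0.05, 28 of the 127 (22%) stood, against 12.3% of all genes. Of these 22 were lower (17.3%, against 6.8% of all genes) and 6 were higher (4.72%, against 5.45%). The lists were chosen with earlier results of these arrays known, so these shares are a description of the lists. A lower mean was found in 52.6% of all genes, with a median difference of -0.0089, to set beside the list counts below. CCN2 and ID1 are counted in 2 lists each. By over 1.5-fold, 2 of the 127 genes were lower, TGFBI and WWTR1 (0.652% of all genes), and 0 were higher (0.271% of all genes).

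Among 19 measured genes for other thrombospondin receptors and CD47 ligands, 13 had a lower and 6 a higher mean, with a median difference of -0.12. The integrin subunits ITGA5, of the fibronectin receptor, and ITGA3, which pairs with ITGB1 to bind laminins and THBS1, were at -0.50 and -0.48. ITGA5 had log2 signals of 7.61 and 7.71 with NS and 7.19 and 7.12 with p53si-1, without overlap (adjusted p = 0.101 from limma). LRP8, a lipoprotein receptor that binds THBS1, went from 9.59 and 9.60 to 9.21 and 9.11 (difference -0.44, adjusted p = 0.128 from limma). SIRPA, the partner of CD47 on phagocytes, was at -0.37 (adjusted p = 0.219 from limma). ITGAV and ITGB1, subunits shared by many matrix receptors, were singled out after their values were seen. ITGAV was at -0.16 with overlapping groups and a standard error of 0.11. ITGB1 was at 0.08 without overlap, with a standard error of 0.08.

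Of 9 measured genes of the CD36 family and of fatty acid uptake, 6 had a lower mean (median -0.11). FYN, a Src-family kinase that transmits the CD36 signal, had log2 signals of 5.95 and 5.67 with NS and 5.38 and 5.13 with p53si-1, a difference of -0.56 (adjusted p = 0.192 from limma). LYN, a kinase of the same family, was at -0.23. SCARB1, the HDL receptor related to CD36, was at -0.19, and the fatty acid transporter SLC27A4 was at -0.18. None of these 3 passed.

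TGF-beta activation and response genes had a lower mean in 19 of 22 cases (52.6% of all genes), with a median of -0.12. Some of these means were barely lower, such as SMAD2 at -0.0002 and SKIL at -0.0003. Both p53si-1 arrays lay below both NS arrays in 7 of the 22 genes, against 22.6% of all genes. TGFBI, a matrix protein induced by TGF-beta, had log2 signals of 8.80 and 8.77 with NS and 8.21 and 8.06 with p53si-1. The groups did not overlap, and the difference was -0.65 with a standard error of 0.09 (adjusted p = 0.072 from limma). It passed with a prior variance that follows the signal (adjusted p = 0.0256 from limma) and without the dimmest genes (0.0485), and over all alternatives its adjusted p ran from 0.0256 to 0.305. TGFB2, a ligand that can be held in latent form, was at -0.33, and ID1, a target of BMP and TGF-beta signals that represses THBS1, was at 0.37 with overlapping groups and a standard error of 0.21. The ID1 difference was 0.09 without p53si-1 replicate 1 and 0.66 without p53si-1 replicate 2, and TGFB2 was at -0.20 without p53si-1 replicate 2.

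The other matricellular proteins gave 12 lower and 6 higher means among 18 measured genes, with a median of -0.06. CCN2 had log2 signals of 7.96 and 7.94 with NS and 7.51 and 7.45 with p53si-1, a difference of -0.47 (adjusted p = 0.101 from limma). CCN1 went from 7.99 and 8.23 to 7.33 and 7.83, a difference of -0.53 with a standard error of 0.18. Its higher p53si-1 array lay just below its lower NS array. TNC, an adhesion-modulating glycoprotein, and SPARC, a collagen-binding protein, were at -0.31 and -0.24 and did not pass. Without NS replicate 2 they were at -0.01 and -0.14, and without NS replicate 1 at -0.62 and -0.34. CCN1 was at -0.28 without p53si-1 replicate 1.

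Proteins outside the family that carry type 1 repeats were counted next. Of 29 measured genes, 12 had a lower and 17 a higher mean, and the median was 0.03. Over all genes 52.6% had a lower mean, and the median was -0.0089. The mean signal of 18 of the 29 genes lay above the olfactory receptor 95th percentile. SPON2, a secreted spondin, had log2 signals of 6.22 and 6.06 with NS and 6.56 and 6.72 with p53si-1, a difference of 0.50 (adjusted p = 0.151 from limma). THSD7A was at 0.44, ADAMTSL5 at 0.27 and ADAMTSL4, a protein of elastic microfibrils, at -0.35, and none of them passed.

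VEGF and nitric oxide signaling, which THBS1 restrains in vessels, had 7 lower and 9 higher means among 16 genes (median 0.01). KDR, the main VEGF receptor of endothelium, had log2 signals of 8.36 and 8.73 with NS and 8.91 and 9.18 with p53si-1. The difference was 0.50 with a standard error of 0.15 (adjusted p = 0.275 from limma). MMP2, a gelatinase cleared through THBS2 and LRP1, was at -0.54 (adjusted p = 0.188 from limma). The guanylate cyclase subunit GUCY1B1 was at -0.47 with overlapping groups, and the cGMP-dependent kinase PRKG1 was at 0.24 with signals in the olfactory receptor range. The GUCY1B1 difference was -0.14 without p53si-1 replicate 2, -0.18 without NS replicate 1 and -0.80 without p53si-1 replicate 1. KDR was at 0.32 without NS replicate 1.

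Of 16 measured transcription regulators of THBS1, 9 had a lower and 7 a higher mean (median -0.08). WWTR1, which encodes TAZ, had log2 signals of 8.76 and 8.86 with NS and 8.11 and 8.17 with p53si-1. The groups were well apart, with a difference of -0.67, a standard error of 0.09 and an adjusted p of 0.064 from limma. It passed with a prior variance that follows the signal (adjusted p = 0.0233 from limma), without the dimmest genes (0.0433) and after median centring (0.0473). Over all alternatives the adjusted p of WWTR1 ran from 0.0233 to 0.263. YAP1 and TEAD1 were in the same list. They were singled out after their values were seen, since the YAP and TEAD proteins are named above. YAP1 had log2 signals of 9.68 and 9.68 with NS and 9.80 and 9.77 with p53si-1, a difference of 0.10 without overlap. TEAD1 was at -0.10, also without overlap, and neither passed. ID1, described above among the TGF-beta genes, was also in this list, at 0.37 with overlapping groups, and did not pass. EPAS1, a hypoxia-inducible factor, and EGR1, an immediate early factor, were at -0.33 and -0.31 and did not pass.

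**Figure D4:**
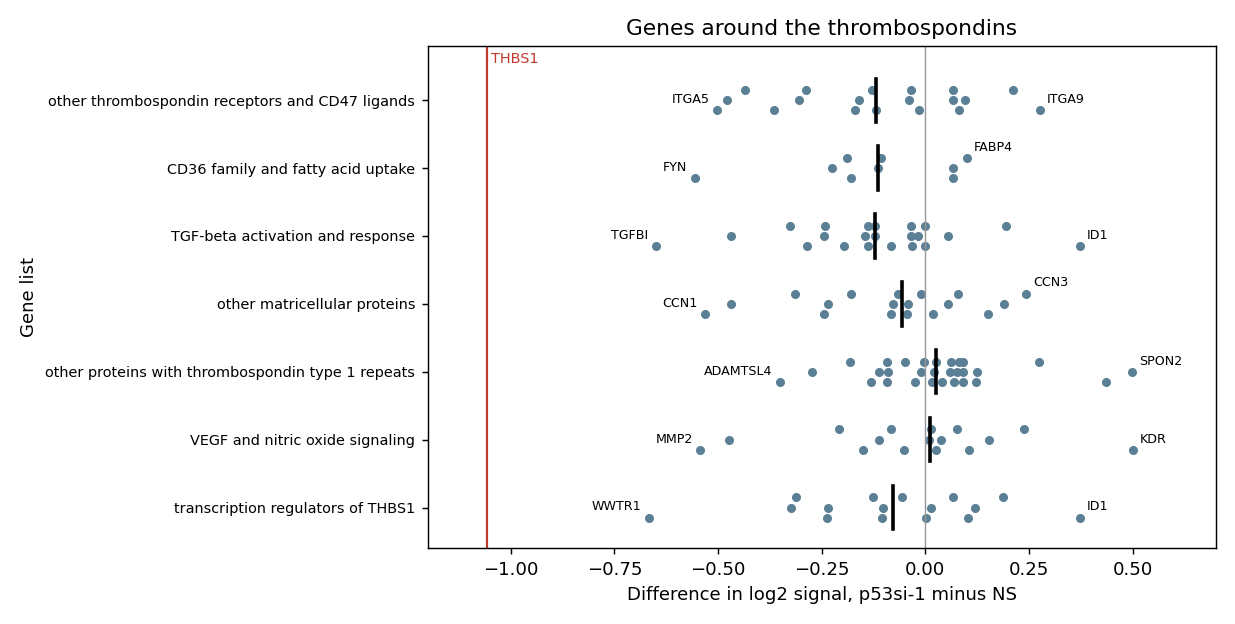
Difference in log2 signal, p53si-1 minus NS, of each measured gene in 7 lists. Points are genes, black bars are list medians, the genes at either end of a list are named, and the red line marks THBS1 at -1.06. The list medians run from -0.12 to 0.03, and no listed gene reaches the THBS1 line.

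The array medians lay between 5.66 and 5.69. Epithelial markers fitted the label of the line, since all 6 (KRT8, KRT18, KRT19, EPCAM, CDH1 and EGFR) had mean log2 signals between 9.46 and 12.4 and differed by -0.14 to 0.15 between the groups. Markers of fibroblasts, endothelium, platelets, macrophages, adipocytes and cartilage, cells that often make thrombospondins or CD36, were measured for 31 genes, of which 15 had a mean above the olfactory receptor 95th percentile. Among these were CD14, at 9.69 to 9.92 on the 4 arrays, and KDR. The differences of the 31 genes ran from -0.15 for COL1A1 to 0.50 for KDR. None of the 31 passed, and their list medians ran from -0.10 to 0.09. The mean log2 signal over the 7 fibroblast markers was 4.82 and 4.84 with NS and 4.76 and 4.72 with p53si-1. Among them, COL1A1 was at -0.15 (log2 signals of 7.25 and 7.32 against 7.22 and 7.05), and DCN, LUM, PDGFRA and PDGFRB were in the olfactory receptor range, as were PECAM1 of endothelium and PTPRC of blood cells. Above that range lay COL1A2 (mean log2 signal 5.76), COL3A1 (5.37), CLDN5 (6.26) and CDH5 (4.85) of endothelium and CD68 (6.54) of macrophages, with differences of -0.10 to 0.02. The platelet markers GP9 (5.91, difference 0.14), ITGA2B (6.05, 0.07) and PF4 (4.76, -0.0044) were above it as well. So were PLIN1 of adipocytes (5.42, 0.07), CSF1R of macrophages (4.90, -0.0029) and COL2A1 (6.19, -0.09) and COL9A1 (4.99, -0.08) of cartilage. Their part in the THBS1 difference was not tested.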

How the data were processed

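RNA from 2 NS and 2 p53si-1 cultures was hybridized to 4 Human Gene 1.0 ST arrays. The deposited values are log2 signals, 1 for each of 33297 transcript clusters, which the authors made with GCOS, Affymetrix Expression Console and RMA per the labels. The log2 scale was judged from their range, and the sources used here do not state the annotation version. RMA evens out the arrays and compresses changes of dim probes. Clusters naming 1 symbol (19460) were kept, and the brightest cluster stood for each of 18417 genes, with 1 cluster for each thrombospondin and receptor. The group difference of every gene was fitted in R 4.3.3 by limma 3.58.1, through lmFit and eBayes. Benjamini-Hochberg adjustment covered all 18417 genes. The fit had 2 residual degrees of freedom and a prior worth 4.2. Its steps were also run on simulated data. That outcome is not given here, so the power to find differences of the sizes above is not stated. By rule, the listed genes named were all those at an adjusted p under 0.05, otherwise up to 4 per list by size. The 5 genes nearest THBS1 were named as well. Outside this rule, ITGAV, ITGB1, YAP1 and TEAD1 were named, and SMAD2 and SKIL as examples of means barely lower. Markers of cell types were also named apart from it. Members and lists were chosen with earlier results of these data known. The legend of the study describes the replicates as independent, and the number of arrays limits precision. Alternatives changed the cluster per gene, the filter on dim genes, the normalization, the prior variance, the replicate block, the fold criterion and the arrays used. Promoter sequences are from RefSeq (GRCh38.p14).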

Additional observations from a re-analysis of the deposited data

How the results depend on the processing

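The THBS1 difference ran from -1.07 after quantile normalization to -1.05 after median centring, and from -1.15 to -0.97 without 1 array. THBS1 was past 1.5-fold, and past 2-fold, in each setting with all arrays, and 1 member was past 1.5-fold throughout, with 1 array left out as well. Among the other members, THBS3, THBS4, CD36 and CD47 kept their sign in every setting run. THBS2 changed sign in 3 of 10 settings (-0.05 to 0.04) and COMP in 4 of 11 (-0.07 to 0.06). Each member has 1 cluster, and the settings for the cluster, dim genes, prior variance and block could not change any member's difference. Where groups did not overlap, leaving out 1 array could not change the sign either. For THBS3, THBS4, CD36 and CD47 only the normalizations could have changed it. CD47 moved to -0.13 after quantile normalization. THBS2 and CD36 have no value without the dimmest 25% of genes, since they are among them. Of the listed genes, 0 passed by limma, with 28 at an unadjusted p under 0.05. The count was 2 without the dimmest genes, 1 after median centring, 2 with the prior variance following the signal, and 0 without any 1 array. Over all genes 20 passed, against 4 with the dimmest cluster per gene, 89 without the dimmest genes, 62 after median centring, 149 with the prior variance following the signal, and 0 to 1 without 1 array. With the replicate block 12 passed. The arrays share only a number, and the deviations of same-numbered arrays correlated at 0.242 across genes, which with 2 pairs does not show pairing. With the block the count of listed genes stayed at 0. The THBS1 difference was again -1.06, which the block cannot change, since each group has 1 array of each number. For 30 listed genes named in the text, 324 of 329 values kept their direction and side of the threshold, and 5, of TGFBI and WWTR1, came to pass it. None of the 30 genes passed with the main setting, and a fit without 1 array is less precise, so the side of the threshold had little room to change. The direction had little room as well. The settings for the cluster, dim genes, prior variance and block left each difference as it was. For genes whose groups did not overlap, leaving out 1 array could not reverse it. SMAD2, SKIL and ITGA2B, also given with values in the text, are not among the 30. Leaving out 1 array moved the difference by over 1.5 times in 16 of these 30 genes, furthest in TNC, ITGAV, ID1 and GUCY1B1.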
